A study of Homo sapiens with 9 samples.

Results

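The 10 genes described here encode the D-type cyclins (CCND1, CCND2 and CCND3), the kinases they activate (CDK4 and CDK6) and 5 inhibitors of cyclin-dependent kinases (CDKN1A, CDKN1B, CDKN1C, CDKN2C and CDKN2D). They were taken by symbol from a list that applies no threshold on measured values, and all 10 were found among the 60603 genes of the count table. RNA was sequenced from TC32, an established Ewing sarcoma cell line with the EWS::FLI1 fusion, in 3 groups of 3 biological replicates. The siEF group was plated on the siRNA that spans the fusion breakpoint, the siNEG group on a nonspecific siRNA, and the treatment label of the third group reads media. The protocol label of the media samples repeats the plating on siRNA given for the other samples, so that the media group had no siRNA rests on its treatment label alone. All 9 libraries share the cell line, a genotype labelled WT, growth in 10% FBS with L-glutamine, polyA RNA, 1 batch label and a time of 30 h. The study used siEF to find genes that depend on the fusion. A single cell line was used, so the replicates do not sample different tumors, and no label ties a replicate to a passage or day.

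D-type cyclins bind and activate CDK4 and CDK6, and the active kinases phosphorylate the retinoblastoma protein and its relatives, which releases E2F transcription factors and moves cells from G1 into S phase. The INK4 inhibitors, here CDKN2C (p18) and CDKN2D (p19), bind CDK4 and CDK6 directly. The CIP/KIP inhibitors CDKN1A (p21), CDKN1B (p27) and CDKN1C (p57) bind complexes of cyclin and kinase and block CDK2, and p21 and p27 also help cyclin D to assemble with CDK4. Ewing sarcoma cells are known for high cyclin D1.

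Values are expected counts, which are reads assigned to a gene by RSEM, or CPM (counts scaled to the library total) after TMM scaling, a correction for differences in library composition. The libraries held between 20727706 and 33134581 expected counts each. The 10 most abundant genes of a library took 12.29% to 12.87% of the counts in siEF and 5.78% to 6.62% elsewhere. All 10 members passed the filter on low counts and were tested with edgeR among 16093 genes. FLI1 contributes the 3′ part of the fusion and so was taken as a check of the silencing. It averaged 37.8 CPM in siEF (SD 2.0), 48.4 CPM in siNEG (SD 0.315) and 57.9 CPM in media (SD 1.65, n = 3 each). Its log2 fold change was -0.35 for siEF against siNEG (SE 0.06) and -0.61 for siEF against media (SE 0.06). For siNEG against media it was -0.26 (SE 0.05, edgeR adjusted P = 0.00347). According to the methods, the silencing was checked by qPCR, with a change of 3 cycles, or 3 units on the log2 scale. The paper states that FLI1 itself is not expressed in this cell type. In these counts FLI1 fell far less than the qPCR change, and the reason for the difference was not tested. Of 6 Ewing sarcoma markers, all tested, NR0B1, STEAP1, NKX2-2, BCL11B and FLI1 were lower and CD99 was higher in siEF than in siNEG. Each had an adjusted P under 0.01, beside 31.7% of all tested genes lower and 33.6% higher. Log2 fold changes ran from -2.97 for NR0B1 to 0.23 for CD99. Against media, CD99 was at -0.11 in siEF (SE 0.06, edgeR adjusted P = 0.0815). The other 5 were lower by adjusted P, beside 32.3% of all tested genes. In siNEG, 5 of the 6 were lower than in media by adjusted P, beside 5.96% of all tested genes. CD99 was among them (-0.34, SE 0.06), and the median log2 fold change of the 6 was -0.355. The summed level of 4 markers of blood, epithelial and endothelial cells was 1.55 to 2.40 CPM in siEF, 3.46 to 4.36 CPM in siNEG and 4.44 to 5.59 CPM in media, with CD3E at 0 in every library and PTPRC at 0 in siEF. PECAM1, an endothelial marker, supplied most of that sum and was lower in siEF than in siNEG (-1.22 on the log2 scale). EPCAM, an epithelial marker, went the other way, at 0.406 CPM in siEF, 0.0400 CPM in siNEG and 0.399 CPM in media, and was called higher in siEF than in siNEG (log2 fold change 3.17, SE 0.69, edgeR adjusted P = 0.000565). The part of these markers in the results for the members was not tested. In bulk RNA, fewer cells in a phase of the cell cycle and less RNA per cell cannot be told apart.

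A gene was called at a Benjamini-Hochberg adjusted P under 0.01 in the edgeR quasi-likelihood fit together with a log2 fold change beyond 1. Against siNEG, 2 of the 10 members were called lower in siEF (CCND1 and CDKN2D), beside 11.7% of all tested genes, and 2 were called higher (CDK6 and CDKN1A), beside 17.1%. By adjusted P alone, CCND3 and CDK4 joined the lower genes, making 4 of 10 beside a background of 31.7%, and CDKN1B joined the higher genes, making 3 of 10 beside 33.6%. These shares lie near the background, so the counts are not in themselves a result about the members, and each gene is given by the size and direction of its change. For 8 members the 3 siEF libraries lay wholly outside the range of the siNEG libraries, as they did for 76.9% of tested genes. The median log2 fold change was -0.18 over the members and 0.05 over all tested genes.

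**Figure D1:**
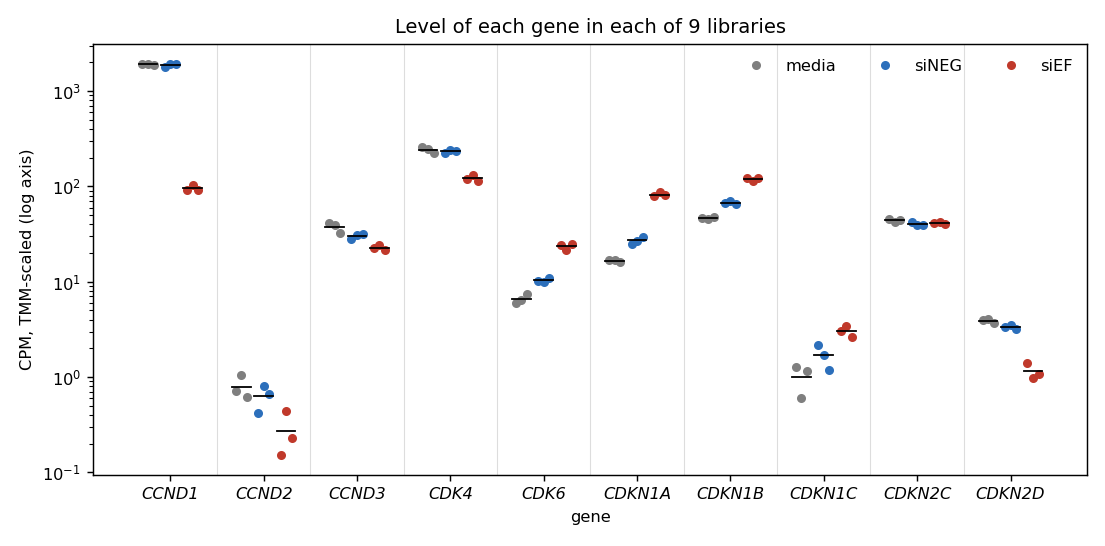
Level of the 10 genes in each library, in TMM-scaled CPM on a log axis. Points are libraries (3 per group) and black lines are group means. CCND1 fell from a mean of 1868 CPM in siNEG to 95.4 CPM in siEF, while CDK6, CDKN1A and CDKN1B stepped upward from media to siNEG to siEF.

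CCND1 encodes cyclin D1 and showed the largest change of the members. The gene (ENSG00000110092.3) occupies chromosome 11, plus strand, 69641156 to 69654474 (GRCh38, GENCODE 44). It had 2553, 2106 and 2651 counts in siEF replicates 1, 2 and 3, against 56211, 64966 and 59686 in siNEG and 59525, 60855 and 53949 in media. The 2 control groups overlapped each other, and every siEF library lay far below both. After scaling, CCND1 averaged 95.4 ± 6.73 CPM (SD, n = 3) in siEF, 1868 ± 79.8 CPM in siNEG and 1920 ± 31.4 CPM in media. Relative to siNEG, siEF stood at a log2 fold change of -4.29 (SE 0.06, edgeR adjusted P = 6.51e-18), so that 5.10% of the siNEG level was left. This fall ranked 20 among the 16093 tested genes, counted from the largest fall. LTO1, which overlaps the 3′ end of CCND1 on the opposite strand, had between 188 and 572 counts per library. The strand setting of the counting is not given in the sources used here, so the part of such a partner in the CCND1 counts was not tested.

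CCND3, which encodes cyclin D3, was lower in siEF by a much smaller amount. It occupies chromosome 6, minus strand, 41934934 to 42050357. Its level was 22.5, 24.3 and 21.3 CPM in the siEF replicates, 27.7, 30.7 and 31.4 CPM in siNEG, and 41.1, 39.4 and 32.2 CPM in media. The 3 groups did not overlap, and media was the most variable. Against siNEG the log2 fold change was -0.40 (SE 0.09, edgeR adjusted P = 0.0007), which left 75.7% of the level. Against media it was -0.73 (SE 0.09, edgeR adjusted P = 1.2e-06). Between siNEG and media the log2 fold change was -0.33 (SE 0.08), which missed the threshold at an edgeR adjusted P of 0.0125.

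CCND2, which encodes cyclin D2, was barely detected. It occupies chromosome 12, plus strand, 4269771 to 4305353, with 4.18 to 9 counts in siEF, 13.34 to 27 in siNEG and 17.47 to 33.14 in media. Its log2 fold change was -1.24 (SE 0.48, edgeR adjusted P = 0.0283) against siNEG, where the groups overlapped, and -1.56 (SE 0.47, edgeR adjusted P = 0.0068) against media, where they did not. These values are uncertain because RSEM divided reads between CCND2 and a longer gene on the same strand, ENSG00000285901, which starts at the same base as the canonical CCND2 transcript. That gene had 32.32, 0 and 1.38 counts in siEF, 112.35, 0 and 47.05 in siNEG, and 24.64, 88.3 and 9.81 in media. When both were summed, an alternative chosen after the data were seen, the log2 fold change against media was -1.62 with an edgeR adjusted P of 0.0289, and CCND2 was no longer called. The call was also lost with DESeq2 (adjusted P = 0.0132), with upper quartile scaling (adjusted P = 0.0102), and when siEF replicate 1, siEF replicate 3, siNEG replicate 3, media replicate 1 or media replicate 2 was left out of the edgeR fit (adjusted P from 0.0103 to 0.0451).

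Levels of different genes were compared after division by the length of the canonical transcript, as CPM per kb. On that scale the 3 D-type cyclins kept 1 order in every group, CCND1 above CCND3 above CCND2. In siNEG they were at 441 ± 18.8, 14.8 ± 0.960 and 0.0963 ± 0.0292 CPM per kb (SD, n = 3). In siEF they were at 22.5 ± 1.59, 11.2 ± 0.758 and 0.0422 ± 0.0231 CPM per kb. Of the summed D-type cyclin transcripts, CCND1 made up 96.8%, 96.7% and 96.7% in siNEG and 66.1%, 66.8% and 67.0% in siEF. CCND3 made up the rest almost alone, at 3.24% ± 0.0768 (SD, n = 3) in siNEG and 33.2% ± 0.517 in siEF. The CCND1 share was thus 30.1 percentage points smaller in siEF, with no overlap between groups. An exact two-sided permutation test gave p = 0.1, the smallest value that 3 against 3 libraries allow, so no share can pass 0.05 in this design. Over the 27 such comparisons made on sums, shares and ratios, the smallest Benjamini-Hochberg adjusted value was 0.117. The size of the shift depends on which length is used. With merged exons, which lengthen CCND3 the most, the CCND1 share was 98.7% in siNEG and 83.4% in siEF. The summed D-type cyclins stood at 33.8 ± 2.34 CPM per kb in siEF and 456 ± 19.8 CPM per kb in siNEG, a ratio of 13.5 between siNEG and siEF.

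**Figure D2:**
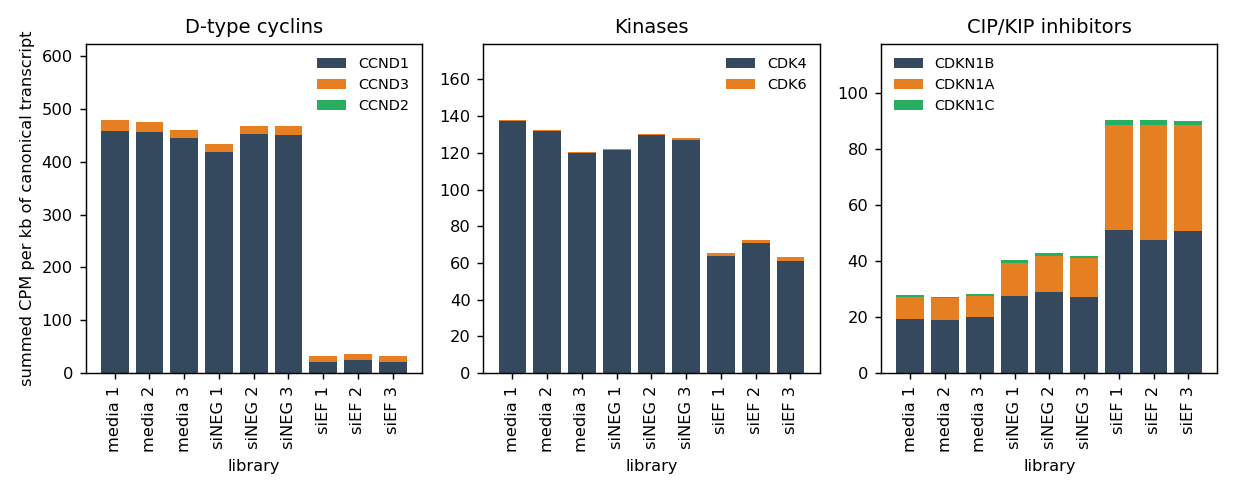
Stacked levels per length (CPM per kb of canonical transcript, linear axes from 0) of the D-type cyclins, the kinases and the CIP/KIP inhibitors in each library. The D-type cyclin sum dropped to 33.8 CPM per kb in siEF while the CIP/KIP sum rose to 90.2 CPM per kb, and CDK6 and CCND2 are thin or invisible at this scale.

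The partner kinases moved in opposite directions. CDK4 occupies chromosome 12, minus strand, 57747727 to 57756013, and was at 119, 132 and 114 CPM in the siEF replicates, 227, 242 and 237 CPM in siNEG and 256, 246 and 224 CPM in media. All siEF libraries were below all control libraries, and the control groups overlapped. Relative to siNEG the log2 fold change was -0.95 (SE 0.06, edgeR adjusted P = 3.23e-10), which left 51.6% of the level and fell just short of the fold cut-off. Leaving out siEF replicate 2 (-1.02) or siNEG replicate 1 (-1.01) took it past the cut-off. TSPAN31, on the opposite strand and overlapping the 3′ end of CDK4, had 888, 690 and 860 counts in siEF, 557, 591 and 513 in siNEG and 373, 359 and 403 in media, the reverse of the order of CDK4. Its part in the CDK4 counts was not tested.

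CDK6 occupies chromosome 7, minus strand, 92604921 to 92836573, and was at 23.99, 21.40 and 24.95 CPM in the siEF replicates, 10.05, 9.90 and 10.99 CPM in siNEG and 5.98, 6.47 and 7.51 CPM in media. The 3 groups did not overlap and were ordered media, siNEG, siEF. Against siNEG the log2 fold change was 1.19 (SE 0.09, edgeR adjusted P = 5.3e-09), a 2.28-fold rise, and against media it was 1.82 (SE 0.10, edgeR adjusted P = 4.22e-11). Per length, CDK4 exceeded CDK6 in every library. CDK4 was at 65.2 ± 5.13 and CDK6 at 2.01 ± 0.157 CPM per kb (SD, n = 3) in siEF, against 126 ± 4.10 and 0.884 ± 0.0509 CPM per kb in siNEG. CDK4 therefore made up 97.0% ± 0.445 (SD, n = 3) of the summed kinase transcripts in siEF and 99.3% ± 0.0430 in siNEG, without overlap (exact two-sided permutation p = 0.1, the smallest possible).

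Sequences just upstream of the start sites are shown for CDK4 and CDK6, as the kinases that moved apart. Each is the 250 bases before the start site of the canonical transcript, 5′ to 3′ in the direction of the gene, from RefSeq (GRCh38.p14), with the ETS core GGAA or its complement TTCC in capitals. FLI1 is an ETS factor, and EWS::FLI1 is known to bind single GGAA cores and tandem repeats of them.
CDK4 (chr12:57752311-57752560, minus strand): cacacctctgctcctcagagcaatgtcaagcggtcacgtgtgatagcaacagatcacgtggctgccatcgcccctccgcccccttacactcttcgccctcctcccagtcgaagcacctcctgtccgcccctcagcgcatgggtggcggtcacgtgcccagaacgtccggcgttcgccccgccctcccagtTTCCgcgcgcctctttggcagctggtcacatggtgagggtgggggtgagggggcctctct
CDK6 (chr7:92836574-92836823, minus strand): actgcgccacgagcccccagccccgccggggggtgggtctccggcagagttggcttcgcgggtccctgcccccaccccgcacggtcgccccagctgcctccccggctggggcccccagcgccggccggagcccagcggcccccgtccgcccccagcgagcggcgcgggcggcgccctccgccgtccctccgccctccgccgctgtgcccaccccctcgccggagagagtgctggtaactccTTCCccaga
Each of these windows holds 1 GGAA core counted on both strands. Of 34943 windows of this length in the table, 92.7% hold at least 1, with a median of 3, so both windows lie below the median. The CDK4 window holds 3 copies of CACGTG, the E-box that MYC family proteins bind and a sequence that reads the same on both strands. CDK6 has none. Over the 7 members with a window, 2 hold CACGTG, the other being CDKN2C with 1 copy, beside 6.32% of all windows.

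Among the inhibitors, CDKN1A rose most. CDKN1A encodes p21, a p53 target, and occupies chromosome 6, plus strand, 36676460 to 36687337. It was at 78.9, 86.3 and 80.2 CPM in the siEF replicates, 24.89, 26.97 and 29.59 CPM in siNEG and 16.8, 16.8 and 16.2 CPM in media. The 3 groups were separate and stepped upward in that order from media to siEF. The log2 fold change was 1.59 against siNEG (SE 0.07, edgeR adjusted P = 1.79e-12), a 3.01-fold rise, and 2.30 against media (SE 0.07, edgeR adjusted P = 3.26e-14), a 4.93-fold rise. DINOL, a noncoding gene antisense to its 5′ end, had at most 1 count in a library.

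CDKN1B, which encodes p27, followed the same order with smaller steps. It occupies chromosome 12, plus strand, 12685498 to 12722369, and was at 124, 115 and 122 CPM in the siEF replicates, 66.4, 70.1 and 65.6 CPM in siNEG and 46.5, 45.8 and 48.1 CPM in media. No groups overlapped. Against siNEG the log2 fold change was 0.84 (SE 0.05, edgeR adjusted P = 1.86e-10), under the fold cut-off, and against media it was 1.36 (SE 0.05, edgeR adjusted P = 4.85e-13), beyond it. CDKN1C, which encodes p57 and is expressed from the maternal allele in most tissues, was scarce, with 19 to 84 counts per library. It occupies chromosome 11, minus strand, 2883213 to 2885775. Its level was 3.02 ± 0.412 CPM (SD, n = 3) in siEF, 1.68 ± 0.482 CPM in siNEG and 1.01 ± 0.357 CPM in media, and the siEF libraries lay above both control groups, which overlapped. Against siNEG the log2 fold change was 0.84 (SE 0.28, edgeR adjusted P = 0.0121), the same size as that of CDKN1B with a larger SE, and against media it was 1.58 (SE 0.29, edgeR adjusted P = 0.000134). The adjusted P against siNEG crossed 0.01 in 6 of 17 alternatives, among them the fits without siNEG replicate 1 (log2 fold change 1.02) and without media replicate 2.

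Of the INK4 members, CDKN2D was lower in siEF and CDKN2C did not pass the test. CDKN2D occupies chromosome 19, minus strand, 10566460 to 10569059, with 39, 20 and 31 counts in siEF, 107, 118 and 99 in siNEG and 122, 127 and 105 in media. After scaling it averaged 1.15 ± 0.228 CPM (SD, n = 3) in siEF, 3.34 ± 0.155 CPM in siNEG and 3.89 ± 0.198 CPM in media, with no overlap between groups. Its log2 fold change was -1.53 against siNEG (SE 0.19, edgeR adjusted P = 2.24e-06), which left 34.7% of the level. CDKN2C occupies chromosome 1, plus strand, 50960745 to 50974634, and averaged 41.4 ± 1.22 CPM (SD, n = 3) in siEF, 40.3 ± 2.12 CPM in siNEG and 44.2 ± 1.56 CPM in media. Its log2 fold change against siNEG was 0.04 (SE 0.06, edgeR adjusted P = 0.563) and the groups overlapped. It was the member with the smallest change in that comparison, and its sign turned when no filter on low counts was applied. Per length, CDKN2C was 41.6 ± 1.23 CPM per kb in siEF and CDKN2D 0.807 ± 0.160 CPM per kb (SD, n = 3). Their sum was 42.4 ± 1.21 CPM per kb in siEF, 42.8 ± 2.15 in siNEG and 47.15 ± 1.57 in media. With merged exons the sum was 14.49 ± 0.411 in siEF, 15.56 ± 0.728 in siNEG and 17.23 ± 0.527 in media. In that form siEF lay below siNEG without overlap (exact two-sided permutation p = 0.1, the smallest possible), and under both lengths it lay below media without overlap. The other INK4 genes gave little signal, with CDKN2A at 3 to 13 counts per library and CDKN2B at 0 in all 9. In a single library, a count of 0 still allows a true mean of up to about 3 counts. Neither was tested.

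CDKN1A and CDKN2D were the inhibitors called in opposite directions against siNEG, and their upstream windows are shown in the same form as those of the kinases.
CDKN1A (chr6:36678464-36678713, plus strand): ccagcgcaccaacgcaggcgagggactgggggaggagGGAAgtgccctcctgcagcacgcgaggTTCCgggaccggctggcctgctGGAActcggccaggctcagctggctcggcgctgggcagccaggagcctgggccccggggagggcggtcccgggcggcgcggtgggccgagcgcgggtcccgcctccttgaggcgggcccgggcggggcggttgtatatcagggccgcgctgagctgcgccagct
CDKN2D (chr19:10568980-10569229, minus strand): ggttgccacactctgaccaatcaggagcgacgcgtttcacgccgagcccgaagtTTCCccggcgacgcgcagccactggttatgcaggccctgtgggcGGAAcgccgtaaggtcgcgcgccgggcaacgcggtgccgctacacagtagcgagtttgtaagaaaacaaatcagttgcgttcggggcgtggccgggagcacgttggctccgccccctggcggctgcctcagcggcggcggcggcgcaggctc
CDKN1A holds 3 GGAA cores and CDKN2D holds 2. Upstream windows of the canonical start were found in the RefSeq table for 7 of the 10 members (CCND3, CDK4, CDK6, CDKN1A, CDKN1B, CDKN2C and CDKN2D). All 7 held at least 1 GGAA core and none held the doubled core GGAAGGAA, which 3.06% of all windows hold. All 7 held the GC box GGGCGG on either strand, from 1 copy in CDKN1B and CDKN2C to 4 copies in CDKN1A, where 42.5% of all windows hold it. The E2F sequences TTTCGCGC and TTTGGCGC were in none of the 7, and 0.429% and 0.547% of all windows hold them. Members that rose and members that fell did not separate by these counts. A match shows only that the letters are present in this window.

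**Figure D3:**
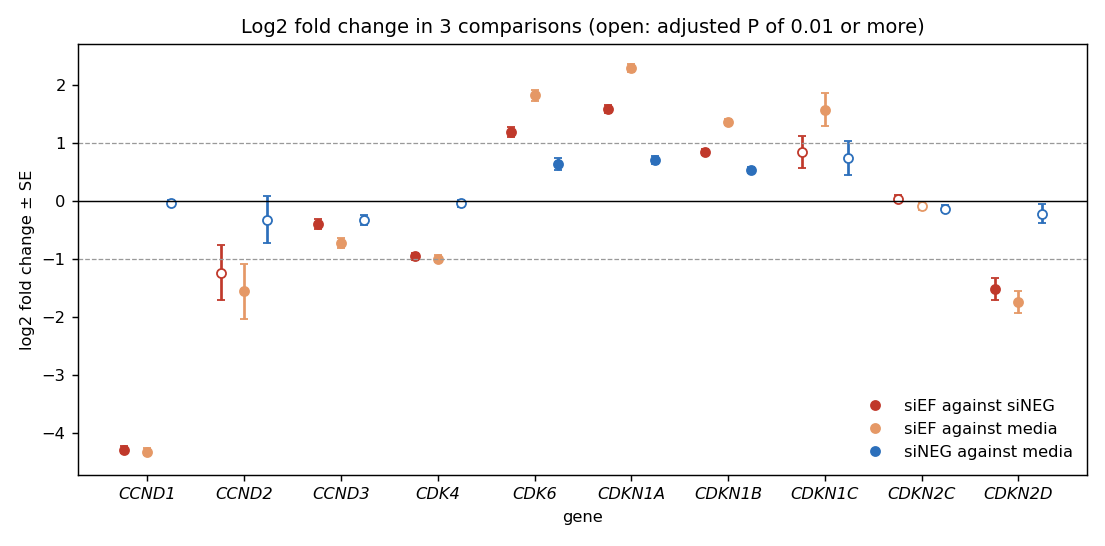
Log2 fold change of each gene with its SE in the 3 comparisons. Filled points have an edgeR adjusted P under 0.01, open points do not, and dashed lines mark a log2 fold change of 1 in either direction. CCND1 lies near -4.3 in both comparisons of siEF and near 0 in siNEG against media, where CDK6, CDKN1A and CDKN1B are filled and positive.

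The comparison with media used the same siEF libraries, so its values are given beside the first and are not a second line of evidence. Here 3 members were called lower (CCND1, CCND2 and CDKN2D) beside 12.5% of tested genes, and 4 were called higher (CDK6, CDKN1A, CDKN1B and CDKN1C) beside 17.4%. CCND1 was at -4.33 (SE 0.06) and CDKN2D at -1.74 (SE 0.19) on the log2 scale. CDK4, at -0.99 (SE 0.06), again lay just inside the cut-off and passed it with DESeq2 (-1.01), among other alternatives. By adjusted P alone, 5 members were lower, beside 32.3%, and 4 higher, beside 33.6%. CDKN2C was the exception, at -0.09 (SE 0.06, edgeR adjusted P = 0.161).

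Some members also differed between the control groups. Between siNEG and media, none of the 10 was called by edgeR or by DESeq2. Of all tested genes, edgeR called 0.162% higher and 0.267% lower. An unadjusted edgeR p under 0.05 was found for 6 members and for 4869 of the 16093 tested genes. By adjusted P alone, CDKN1A, CDKN1B and CDK6 were higher in siNEG, which is 3 of 10 members beside 3.83% of tested genes, and no member was lower, beside 5.96%. The log2 fold changes were 0.71 for CDKN1A (SE 0.07, edgeR adjusted P = 4.14e-06), 0.53 for CDKN1B (SE 0.05, edgeR adjusted P = 3.16e-06) and 0.63 for CDK6 (SE 0.10, edgeR adjusted P = 0.000376). These are the same 3 genes that were higher in siEF than in siNEG by adjusted P. Because both comparisons use the siNEG libraries, the shared membership is a description. CCND1 and CDK4 showed log2 fold changes of -0.04 each (SE 0.05 and 0.06) between siNEG and media, with overlapping libraries. As a sum per length, the CIP/KIP genes were at 27.8 ± 0.507 CPM per kb (SD, n = 3) in media, 41.7 ± 1.12 in siNEG and 90.2 ± 0.157 in siEF.

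Dividing the summed D-type cyclins by the summed CIP/KIP inhibitors, both in CPM per kb, put both arms in 1 number for each library. The ratio was 17.2, 17.4 and 16.3 in media, 10.7, 10.9 and 11.2 in siNEG, and 0.365, 0.403 and 0.355 in siEF. No groups overlapped, and the mean ratio was 29.2 times as high in siNEG as in siEF (exact two-sided permutation p = 0.1, the smallest possible). With merged exon lengths the ratio was 23.4 ± 0.255 (SD, n = 3) in siNEG and 0.578 ± 0.0276 in siEF. In either form the transcripts of the cyclins outnumbered those of the inhibitors in every control library and not in any siEF library. The ratio concerns RNA, and none of these files measures protein.

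Genes that work next to cyclin D were taken from lists and are given by counts. Of 29 G1/S partners, 27 were tested, and against siNEG 20 were lower and 5 higher in siEF by adjusted P, beside 31.7% and 33.6% of all tested genes, with a median log2 fold change of -0.79. With the fold cut-off, 11 were called lower and 1 higher, beside 11.7% and 17.1%. E2F2, an activating E2F factor, fell most (-3.63, SE 0.07), and AMBRA1, the adaptor of the ubiquitin ligase that degrades D-type cyclins, rose most (1.12, SE 0.06, edgeR adjusted P = 8.96e-11). All 6 genes of the cyclin E and A kinase group were called lower, from -1.05 for CDK2 to -3.20 for CCNE2, where 11.7% of tested genes were called lower. Against media, 5 of these 6 were called lower, beside 12.5%. The exception was CCNE1, at -1.89 (SE 0.11) against siNEG and -0.89 (SE 0.11) against media. CCNE1 was also called higher in siNEG than in media (1.00, SE 0.10, edgeR adjusted P = 2.69e-06). Again against siNEG, 8 of the 10 pocket protein and E2F genes were lower and 2 higher by adjusted P. The largest rise was that of TFDP2 (0.85, SE 0.07), a dimer partner of E2F. Among the 7 turnover genes, 3 were higher and 2 lower, with CKS1B, the cofactor by which SKP2 recognizes p27, at -1.23 (SE 0.04). The 4 genes for the CDK-activating kinase subunits and for CDC37, the chaperone adaptor that brings CDK4 to HSP90, were all lower by adjusted P, though none passed the fold cut-off, from -0.22 for CDC37 to -0.91 for MNAT1.

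All 20 S and G2/M phase genes were lower in siEF by adjusted P, beside 31.7% of tested genes, and 18 were called lower, beside 11.7%. Their median log2 fold change was -1.38, with MCM4 at -3.10 (SE 0.05) and TOP2A at -0.39 (SE 0.05) as the extremes. A summed level of 2307 to 2444 CPM in siEF stood against 6286 to 6406 CPM in siNEG for these genes. CCND1, CDK4 and CDKN2D fell in the same libraries, and the part of a change in cycling in those falls was not tested. The 22 p53 target genes, a list without CDKN1A, were mixed. Of these, 10 were higher and 7 lower by adjusted P, beside 33.6% and 31.7% of all tested genes, and 7 were called higher and 3 lower with the fold cut-off, beside 17.1% and 11.7%. Their median log2 fold change was 0.15 beside 0.05 over all tested genes. GDF15, a secreted stress-response factor, rose most (3.87, SE 0.41) and AEN, a nuclease, fell most (-1.81, SE 0.06).

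**Figure D4:**
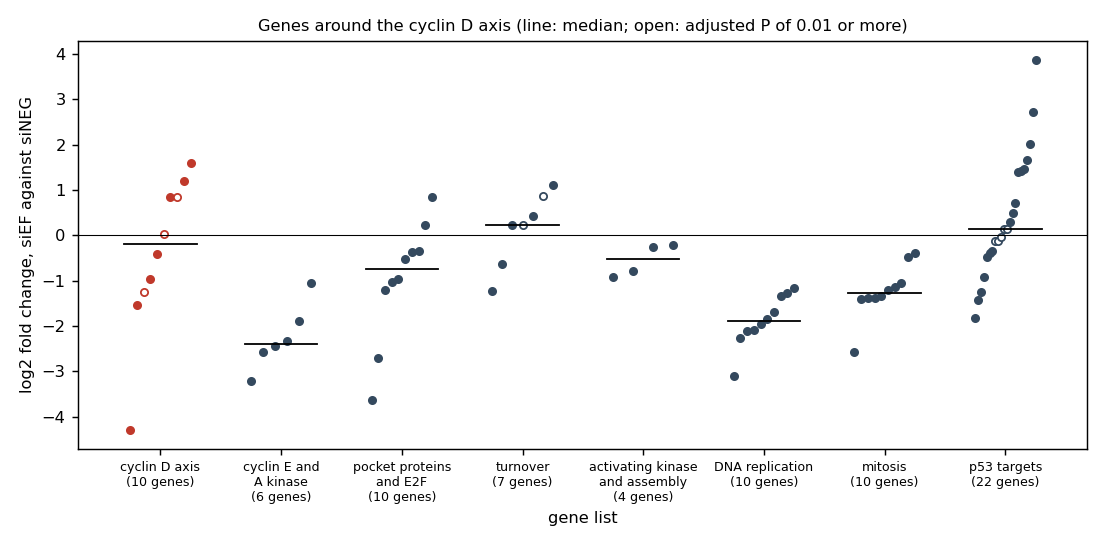
Log2 fold change of siEF against siNEG for the 10 genes described here (red) and for listed genes around them (dark), 1 point per tested gene, with the median as a line. Filled points have an edgeR adjusted P under 0.01. All points of the cyclin E and A kinase, DNA replication and mitosis groups lie below 0, while the p53 targets spread from -1.81 to 3.87.

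For each member, the gene with the most similar pattern over the 9 libraries was found as the one with the smallest root mean square difference of centred log2 CPM among 13457 genes with a mean of at least 1 CPM. CCND1 had GRM2, a metabotropic glutamate receptor, as its nearest gene, at a difference of 0.194 log2 units. CDK4 was closest to ACOT7 (0.0367), CCND3 to MYDGF (0.0526) and CDKN2D to KCNS3 (0.0718). Among the genes that rose, CDKN1A was closest to COL11A1 (0.0748), CDKN1B to PDE7B (0.0609) and CDK6 to ANKRD6 (0.103). CDKN2C was closest to SERF2 (0.0306), the smallest difference found for any member. The scarce genes CCND2 and CDKN1C had RPA4 (0.203) and AL353625.1 (0.196). Likeness over 3 groups of libraries mostly reflects the 3 group means, and nothing about shared control is implied.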

How the data were processed

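RNA of TC32 cells from 9 libraries (siEF, siNEG and media, 3 biological replicates each) was analysed from a single table. According to the methods, the authors aligned reads to hg38 with STAR and estimated gene expression with RSEM, and the submitters' processing notes also name cutadapt 2.10, FastQC and DESeq2 1.32.0. The values the authors deposited are expected counts per gene, unscaled and not pooled. The annotation release and strand setting are not given in the sources used here. The library kit is labelled as a small RNA kit although the molecule is labelled polyA RNA.

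After rounding and filterByExpr, 16093 genes entered a quasi-likelihood fit (edgeR 4.0.16, R 4.3.3) with TMM scaling, 1 mean per group over all 9 libraries and Benjamini-Hochberg adjustment. Each SE is the absolute log2 fold change over the root of F. Positions, transcript lengths and overlaps come from GENCODE 44, in which 99.5% of the identifiers in the table were found. Levels per length are CPM divided by kb of the canonical transcript. Shares were compared by exact permutation over libraries. Promoter windows are those of RefSeq (GRCh38.p14) and matched hg38 letter for letter. No libraries were identical, and pairs within a group differed by more than sampling noise (chi-square per degree of freedom from 3.57 to 23.2), so each counted as 1 replicate. The edgeR P values set a group difference against the spread among replicates of 1 cell line, estimated over all 9 libraries with information shared across genes.

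The members and gene lists were chosen with earlier results of these data known. Genes named beyond the members are FLI1, the nearest gene in pattern to each member, the highest and lowest gene of each list or of its groups, the other Ewing sarcoma and cell type markers, CDKN2A, CDKN2B and the overlapping genes. Genes described within list groups and the E-box search were added after values or sequences were seen. Fits were tested on simulated data. Few genes were changed there, all of them more abundant than CCND2, CDKN1C and CDKN2D, so that test does not cover these scarce members. Alternatives were upper quartile and RLE scaling, DESeq2 1.42.0, a minimum of 10 counts per library or no filter, a fit of only the 6 libraries, a replicate block, unrounded counts, a test against the cut-off, merged exon lengths and each library left out.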

Additional observations from a re-analysis of the deposited data

How the results depend on the processing

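CCND1, CCND3, CDK4, CDK6, CDKN1A, CDKN1B and CDKN2D kept their direction and their side of an adjusted P of 0.01 in both siEF comparisons under every alternative run for them. Against siNEG, CCND1 ranged from -4.36 to -4.21 on the log2 scale. Tested against the cut-off itself, 1 member (CDKN1A) was called higher than siNEG and CDK6 no longer was. With 1 library left out in turn, 2 to 3 members were called lower and 2 to 3 higher against siNEG, and 2 to 4 lower and 4 higher against media. CDK4 and CCND2 made up the difference in the lower genes and CDKN1C in the higher. Signs turned for small values only. CDKN2C was at -0.000929 against siNEG without a filter and at 0.00466 against media with upper quartile scaling, CCND1 between -0.0578 and 0.00944 and CDK4 between -0.0956 and 0.00203 for siNEG against media with 1 library left out in turn (positive without siNEG replicate 1 and without media replicate 1), and CCND2 at 0.132 when summed with its overlapping gene. CCND3, lower in siNEG than in media, passed 0.01 with DESeq2, with no filter and without media replicate 3. Upper quartile scaling moved the median of all genes to 0.132 against siNEG, from 0.0461. With merged exons the CCND1 share differed by -15.24 percentage points between siEF and siNEG in place of -30.08, and the CDK4 share by -3.585 in place of -2.318, and between siNEG and media by -0.4015 in place of -0.2556, since the lengths differ. The replicate numbers did not pair the libraries (correlations of deviations from -0.088 to 0.048), and a replicate block left 2 members called lower and 2 higher against siNEG. Low counts limit CCND2, CDKN1C and CDKN2D.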
